A study of Mus musculus with 9 samples.

Results

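Interferon-stimulated effector genes encode the antiviral and regulatory proteins that cells make after interferon signalling. The 44 genes described here were taken by gene name from a table of 55414 genes, as the members of a list of such effectors, with Rigi listed there under its older symbol Ddx58. Their expression was compared in retinas of Balb/c mice, an albino strain, across 3 groups of 3 RNA-seq libraries. The groups were a control, a light damage model, and the light damage model with A74, called A74 here. The labels do not give what A74 is, its dose or vehicle, the age of the mice, or the length and strength of the light. The series title speaks of P2RX7, an ion channel opened by ATP, and of cGAS-STING, a system that detects DNA in the cytosol, and the design text asks how A74 protects the retina. The genotype field holds only library names, and no transgene or deletion is named for any group. Whether replicates are different animals is not stated, so p-values describe only the scatter of these samples, and part of it may be technical.

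Type I and type III interferons bind their receptors and activate the kinases JAK1 and TYK2. These act on ISGF3, a factor with IRF9 as its DNA-binding subunit, which binds the interferon-stimulated response element of its target promoters. Interferon gamma has a receptor of its own, and its target promoters can hold the gamma-activated site. In the retina, interferon-stimulated genes are known to be induced in microglia, Müller glia and other cells after injury, infection or inflammation.

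Promoter sequences are shown because a binding element known from such genes could be searched for in them, and it was not used to list the members. RefSeq promoter windows of build GRCm38.p6, from 250 bases before to 50 bases after the gene start, were found for 34 of the 44 members. The core of the interferon-stimulated response element, searched as GAAA, any 2 bases, then GAAA, stood on either strand in the windows of 15 of these 34 members (44.1%), and in those of 1079 of the 27025 RefSeq genes searched (3.99%). The search did not cover every chromosome. The gamma-activated site, TTCNNNGAA, stood in 7 of 34 members (20.6%) and in 9.55% of all genes searched, and both patterns were counted separately. A match is a description of the letters and not a measured binding site. The sequences below belong to the most abundant member with a match in each of 4 roles, and run 5′ to 3′ along the gene's strand from 250 bases before to 30 bases after its start. Capitals mark the response element matches.
Ifitm3, chr7:141010715-141010994, minus strand: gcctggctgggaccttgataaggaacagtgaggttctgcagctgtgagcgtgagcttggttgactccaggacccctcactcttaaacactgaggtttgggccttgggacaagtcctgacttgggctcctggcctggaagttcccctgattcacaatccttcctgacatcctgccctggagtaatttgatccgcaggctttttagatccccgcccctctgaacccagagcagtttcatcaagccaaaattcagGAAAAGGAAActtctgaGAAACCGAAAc
Ifit3, chr19:34583279-34583558, plus strand: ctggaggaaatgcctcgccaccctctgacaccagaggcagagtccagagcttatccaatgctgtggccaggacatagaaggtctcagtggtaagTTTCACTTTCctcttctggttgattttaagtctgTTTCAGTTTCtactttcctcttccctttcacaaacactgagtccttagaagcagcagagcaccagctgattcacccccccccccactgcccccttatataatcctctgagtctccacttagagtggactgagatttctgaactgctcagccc
Rigi, chr4:40239796-40240075, minus strand: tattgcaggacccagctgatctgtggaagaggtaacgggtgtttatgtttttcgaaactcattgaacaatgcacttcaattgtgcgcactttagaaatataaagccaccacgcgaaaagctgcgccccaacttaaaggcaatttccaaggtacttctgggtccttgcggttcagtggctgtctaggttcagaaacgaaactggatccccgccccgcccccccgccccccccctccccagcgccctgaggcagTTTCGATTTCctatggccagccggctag
Trim21, chr7:102565453-102565732, minus strand: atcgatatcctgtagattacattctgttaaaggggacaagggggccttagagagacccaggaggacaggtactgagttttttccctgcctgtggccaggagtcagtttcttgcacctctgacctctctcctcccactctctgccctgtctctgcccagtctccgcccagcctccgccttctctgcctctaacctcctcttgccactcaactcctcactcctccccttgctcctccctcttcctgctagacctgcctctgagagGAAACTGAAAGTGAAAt

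In Ifit3 the first match began at position -156 from the gene start, whereas in Ifitm3 and Rigi it began 2 bases after it and in Trim21 13 bases after it. Among the 9 roles used below, matches stood in 3 IFIT genes, 2 OAS genes, 4 genes of RNA sensing, 3 restriction genes, 2 TRIM genes and Isg15.

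The libraries held 14787972 to 18740434 counts, and 17272 genes passed the count filter and were tested. Levels are CPM, a library's counts scaled to a common depth with TMM factors, and values of a group are given in the order of replicates 1, 2 and 3. Libraries within a group stood apart in sex-linked transcripts. Y-linked counts (Ddx3y, Kdm5d, Eif2s3y and Uty) were 4249 to 5832 in replicates 1 and 2 of control and of light damage and 0 in the other 5 libraries. Xist was high, at 17227 to 22253 counts, in control replicate 3 and in all A74 libraries, so light damage replicate 3 was high in neither. Rod markers summed to 53762 to 58632 CPM in control, 31138 to 45524 CPM in light damage and 51914 to 54801 CPM with A74, so the labelled tissue had its defining markers in every library. Genes taken to mark anterior eye tissue, a list from an earlier reading of these data, were high, with sums of 138 to 275 CPM, in A74 replicate 1 and the 4 libraries with Y-linked counts, and low elsewhere, with sums of 12.5 to 15.9 CPM. In bulk RNA, fewer cells of a type and less RNA per cell cannot be told apart.

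Light damage raised nearly every effector gene that could be tested. Of the 39 members that passed the filter, 38 rose and 0 fell against control, where 13% of all genes tested were called higher (edgeR quasi-likelihood test, adjusted p under 0.05 after Benjamini-Hochberg adjustment over 17272 genes). The median log2 fold change of the 39 was 2.34, against 0.01 over all genes tested, and the range ran from 0.19 for Znfx1 to 5.89 for Ifi44l. In 41 of the 44 members all 3 light damage libraries lay above all 3 control libraries. Of the 39 members that passed the filter this held for 39, against 20.6% of all genes tested. The exceptions among the 44 were Oas2, Oas3 and Mx1, which did not pass the filter. Rsad2, Isg20, Rtp4, Ifi44, Ifi44l, Ifi27l2a and Trim30a passed it only through the light damage libraries, where they are high. The calls of these 7 members, and their separation from the other libraries, are therefore no independent support for a change. The 32 members that pass in the other 6 libraries alone were also counted, and 31 of these rose, against 12.7% of the genes that pass in this way.

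The count of 38 depended on which libraries were fitted. A fit of the control and light damage libraries alone called 15, and leaving out control replicate 1, 2 or 3 left 16, 18 or 16 calls, leaving out light damage replicate 2 left 22, and leaving out light damage replicate 3 called 43 of 43 members tested. In every one of the 17 alternative fits that gave a value, the 39 members kept a positive sign (Isg20 had a value in 16), and 11 were called in all 17, namely Oasl2, Dhx58, Parp12, Parp9, Dtx3l, Xaf1, Ifi35, Ifi44l, Ifi27l2a, Trim21 and Sp100. Of these, Ifi44l and Ifi27l2a passed the filter only through the light damage libraries.

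**Figure D1:**
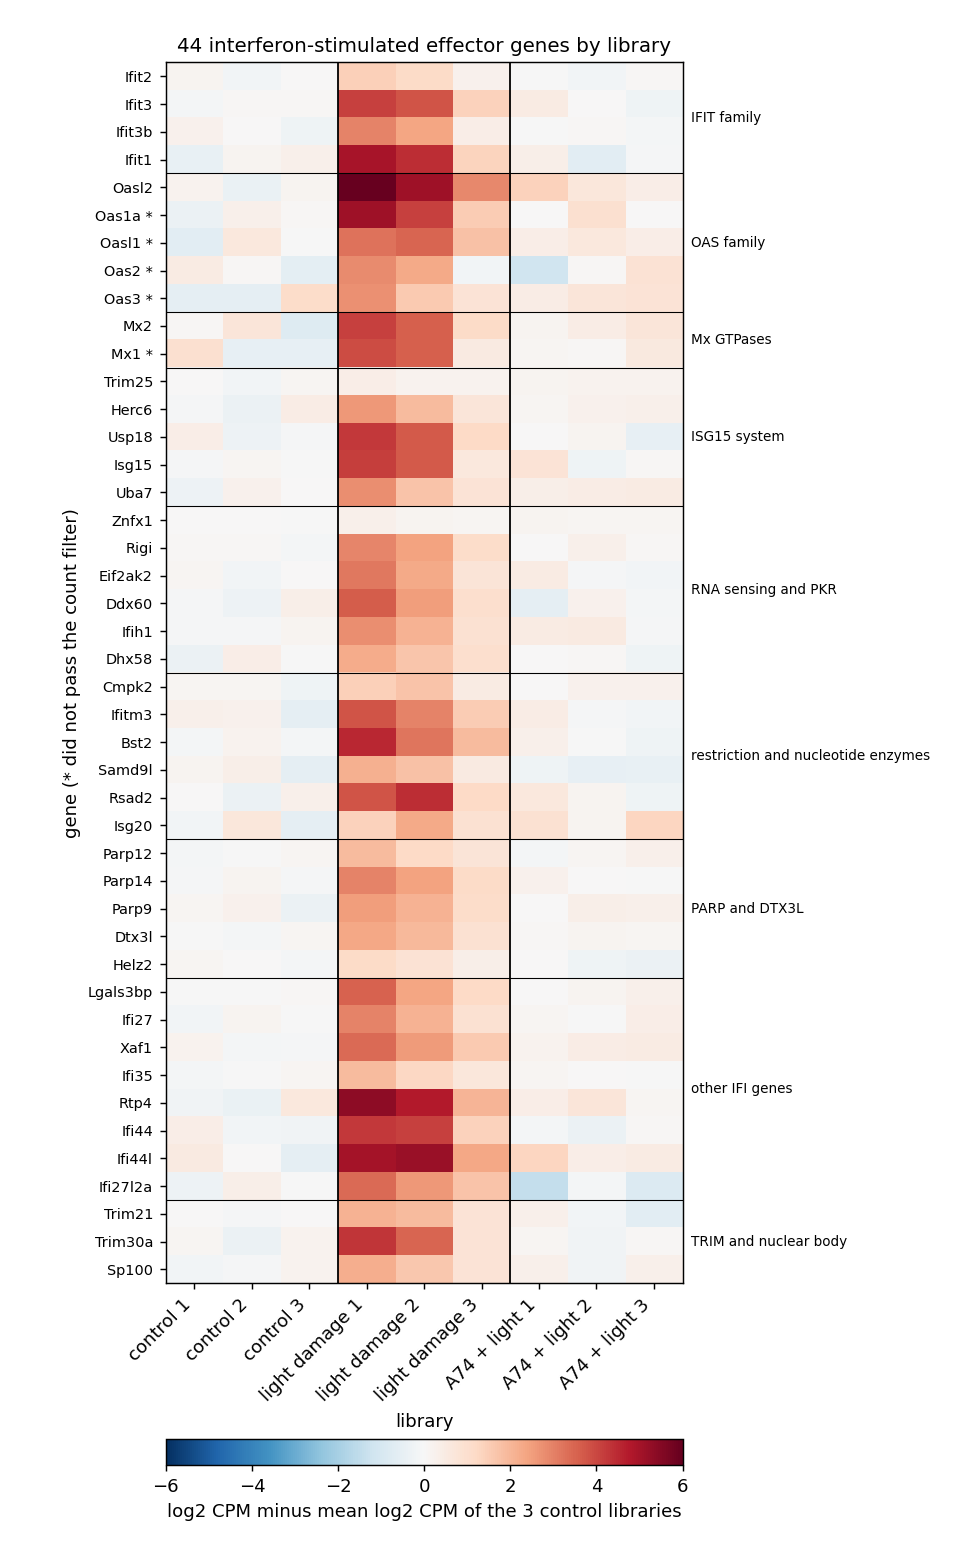
Log2 CPM of each of the 44 members (rows, grouped by role) in each of the 9 libraries (columns), as the difference from the mean log2 CPM of the 3 control libraries; an asterisk marks the 5 members that did not pass the count filter. Light damage replicates 1 and 2 are the strongest columns, with medians of 2.98 and 2.36, replicate 3 is fainter at 0.92, and the A74 columns lie near control at 0.15, 0.12 and 0.07.

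The proteins of the IFIT family bind foreign RNA and block its translation. All 4 members rose with light damage and 3 of 4 fell with A74 against light damage. Ifit2, the most abundant by CPM, had 17.9, 14.5 and 16.4 CPM in the control libraries, 43.3, 35.7 and 19.3 CPM in the light damage libraries and 15.9, 14.7 and 16.8 CPM in the A74 libraries. Ifit3 had 3.25, 3.68 and 3.71 CPM in control, 62.5, 49.5 and 9.38 CPM in light damage and 5.04, 3.59 and 2.92 CPM with A74. In both genes light damage replicates 1 and 2 were far above control, replicate 3 was the lowest light damage library but still above every control and A74 library, and the A74 libraries overlapped control. The log2 fold change of Ifit3 was 3.51 (SE 0.74, edgeR adjusted p = 0.0171) for light damage against control and -3.39 (SE 0.73, edgeR adjusted p = 0.0256) for A74 against light damage, and that of Ifit2 was 1.01 and -1.06 in the same order. Ifit3b, a near copy of Ifit3, had 5.44, 4.64 and 3.84 CPM in control, 36.5, 24.2 and 6.03 CPM in light damage and 4.59, 4.79 and 4.25 CPM with A74. Its change with A74 was -2.29 (SE 0.63, edgeR adjusted p = 0.0535) and was not called, although the groups did not overlap. Reads may be split between Ifit3 and Ifit3b, so their separate levels are uncertain. Ifit1 had the largest light change of the family, 4.28.

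The OAS family includes enzymes that sense double-stranded RNA and make the oligoadenylate signal that activates RNase L, an activity that need not hold for every member listed. Oasl2 was the only one of the 5 members that passed the filter, with 1.98, 1.27 and 1.89 CPM in the control libraries, 121, 60.3 and 13.3 CPM in the light damage libraries and 4.66, 2.81 and 2.26 CPM in the A74 libraries. It changed by 5.26 (SE 0.98, edgeR adjusted p = 0.0109) with light and by -4.32 (SE 0.89, edgeR adjusted p = 0.0218) with A74 against light damage, and its 3 A74 libraries lay above all 3 control libraries. The other members were highest in light damage replicates 1 and 2. Oas1a had 1, 3 and 2 counts in control, 137, 81 and 9 counts in light damage and 2, 6 and 2 counts with A74. Oasl1 had 0, 3 and 1 counts in control, 29, 39 and 8 counts in light damage and 2, 3 and 2 counts with A74, and Oas2 had 4, 3 and 1 counts in control, 32, 24 and 2 counts in light damage and 0, 3 and 6 counts with A74. In Oas2 light damage replicate 3 lay within the range of control and A74. Oas3 stayed at or under 18 counts in every library. Oas1a belongs to a cluster of close copies, so its counts are uncertain.

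MX GTPases trap viral ribonucleoproteins. Mx2 had 0.706, 1.21 and 0.337 CPM in control, 13.5, 9.47 and 1.64 CPM in light damage and 0.765, 0.957 and 1.2 CPM with A74, and changed by 3.42 (SE 0.84, edgeR adjusted p = 0.0255) with light and -3.07 (SE 0.80, edgeR adjusted p = 0.0422) with A74 against light damage. Mx1 had 3, 0 and 0 counts in control, 42, 38 and 2 counts in light damage and 1, 1 and 2 counts with A74. In Mx1 light damage replicate 3 lay within the control range and the other light damage libraries were far above it. Over the group, Mx1 had 82 counts in light damage and 3 in control, a depth-scaled ratio of 24.4 (exact 95% interval for counting error alone, 8.05 to 121). Many inbred mouse strains carry a defective Mx1 gene.

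These low-count members could be tested under looser filters. With a minimum of 10 counts in 2 libraries, light damage against control gave log2 fold changes of 4.98 for Oas1a (SE 1.12, edgeR adjusted p = 0.0167), 3.94 for Oasl1 (edgeR adjusted p = 0.000686), 4.41 for Mx1 (edgeR adjusted p = 0.0171) and 2.62 for Oas2 (edgeR adjusted p = 0.0531). A74 against light damage gave -4.33 for Oas1a (edgeR adjusted p = 0.0283), -3.23 for Oasl1 (edgeR adjusted p = 0.00248), -4.09 for Mx1 (edgeR adjusted p = 0.0264) and -2.50 for Oas2 (edgeR adjusted p = 0.0716). These 4 genes pass that minimum only through light damage replicates 1 and 2, the libraries where they are high, so the calls are no independent support for a change. The result for Oas2 depended on the setting. With no filter it was called in both comparisons (edgeR adjusted p = 0.000139 for light and 0.000301 for A74), and DESeq2 called it for light (adjusted p = 0.0391) and not for A74 (adjusted p = 0.0571). Oas3 had an adjusted p only with no filter, where light damage gave 2.59 (edgeR adjusted p = 0.0123) and A74 against light damage gave -1.70 (edgeR adjusted p = 0.118). Without light damage replicate 3, Oas2 was called at 3.11 (edgeR adjusted p = 0.000844).

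ISG15 is a ubiquitin-like protein that is attached to other proteins by UBA7 and HERC6 and removed by USP18, and TRIM25 is a ubiquitin ligase that acts on RIG-I. All 5 members rose with light damage. Trim25 rose least, by 0.26 (SE 0.08, edgeR adjusted p = 0.0236), with 38.8, 34.4 and 41.8 CPM in control, 50.6, 43.6 and 43.8 CPM in light damage and 43.5, 44 and 43.9 CPM with A74. Its light damage libraries lay just above control, and its A74 libraries overlapped them, with a change against light damage of -0.07 (SE 0.08, edgeR adjusted p = 0.582). Herc6 had 2.83, 2.29 and 4.04 CPM in control, 18.4, 11.5 and 4.98 CPM in light damage and 3.25, 3.53 and 3.65 CPM with A74 and changed by 1.94 and -1.75 in the 2 comparisons. Isg15 itself had 0.848, 0.965 and 0.876 CPM in control, 18.1, 13.1 and 1.44 CPM in light damage and 1.66, 0.718 and 0.930 CPM with A74. Light damage replicate 3 of Isg15 lay inside the range of the A74 libraries, and the change with A74 of -3.31 (SE 0.92, edgeR adjusted p = 0.0544) was not called. Usp18 had the largest light change of this role at 3.64, and the light change of Uba7 was 2.06.

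RIG-I (Rigi), MDA5 (Ifih1) and LGP2 (Dhx58) are helicases that sense viral RNA in the cytosol, PKR (Eif2ak2) is a kinase that stops translation on double-stranded RNA, and ZNFX1 is an RNA helicase. Light damage raised 5 of the 6 members of this role and A74 lowered 5 of them against light damage. Rigi had 5.51, 5.49 and 4.92 CPM in control, 40.9, 28.3 and 11.4 CPM in light damage and 5.42, 6.64 and 5.58 CPM with A74, a change of 2.34 (SE 0.46, edgeR adjusted p = 0.0121) with light and -2.19 (SE 0.45, edgeR adjusted p = 0.0207) with A74 against light damage. Znfx1, by contrast, had 50.1, 48.7 and 47.1 CPM in control, 60.2, 53.8 and 51.9 CPM in light damage and 55.2, 52 and 52.6 CPM with A74. Its light damage libraries lay above control by a small margin, and the change of 0.19 (SE 0.07, edgeR adjusted p = 0.0578) was not called, while a fit with the replicate number as a block gave 0.18 (edgeR adjusted p = 0.0413). With A74 the change of Znfx1 was -0.05 (SE 0.07, edgeR adjusted p = 0.630). Ddx60, called with light damage at 2.76 (edgeR adjusted p = 0.0329), was not called in the blocked fit, at 2.55 (edgeR adjusted p = 0.0778). Dhx58 had the smallest adjusted p of this role in both comparisons, with 1.76 (SE 0.31, edgeR adjusted p = 0.000742) for light and -1.86 (SE 0.31, edgeR adjusted p = 0.000986) for A74.

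Ifitm3 encodes a membrane protein that hinders viral entry, Bst2 encodes tetherin, Cmpk2 a mitochondrial nucleotide kinase, Rsad2 viperin, and Isg20 an exonuclease. All 6 members of this role rose with light damage, by 1.30 for Cmpk2 to 3.97 for Rsad2. Cmpk2 had 14.8, 14.5 and 11.4 CPM in control, 37, 43.9 and 18.9 CPM in light damage and 13.9, 15.9 and 16 CPM with A74. Ifitm3 had 6.22, 5.91 and 3.37 CPM in control, 70.0, 39.6 and 14.7 CPM in light damage and 6.82, 4.73 and 4.38 CPM with A74, with log2 fold changes of 3.00 and -2.96. For Cmpk2 the highest library was light damage replicate 2, and for Ifitm3 it was replicate 1, while replicate 3 was the lowest light damage library of both and above all control and A74 libraries. With A74, 5 of the 6 fell. The exception was Isg20, with 3, 8 and 2 counts in control, 14, 32 and 9 counts in light damage and 9, 5 and 12 counts with A74, whose A74 libraries overlapped the light damage libraries and whose change was -0.93 (SE 0.49, edgeR adjusted p = 0.204). Rsad2 and Cmpk2 are next to each other in the RefSeq gene order, and both were higher in light damage replicate 2 than in replicate 1. Other neighbours did not share this. Ifi44 and Oasl2 were higher in replicate 1, and their neighbours Ifi44l and Oasl1 in replicate 2.

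PARP9, PARP12 and PARP14 transfer ADP-ribose to proteins, DTX3L is the ubiquitin ligase partner of PARP9, and Helz2 encodes a helicase. All 5 rose with light damage, from 0.85 for Helz2 to 2.39 for Parp14, and all 5 fell with A74 against light damage. Parp12 had 12.1, 12.8 and 14.1 CPM in control, 47.9, 30.2 and 22.3 CPM in light damage and 11.8, 14.3 and 15.8 CPM with A74. Parp14 had 4.45, 5.43 and 4.45 CPM in control, 38.7, 26.1 and 10.7 CPM in light damage and 5.74, 4.79 and 4.65 CPM with A74. In both, light damage replicate 3 lay between the other light damage libraries and the remaining 6 libraries, which overlapped each other. Parp14 changed by 2.39 (SE 0.47, edgeR adjusted p = 0.0118) and -2.32 (SE 0.46, edgeR adjusted p = 0.0184), and Parp12 by 1.36 and -1.26. Parp14, Dtx3l and Parp9 are consecutive genes in RefSeq, and their light changes were 2.39, 1.86 and 2.01.

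Among the other genes first named as interferon-inducible, Lgals3bp encodes a secreted galectin-binding glycoprotein, Xaf1 a protein that promotes apoptosis and Rtp4 a receptor transport protein. All 8 rose with light damage and all 8 fell with A74 against light damage. Lgals3bp had 7.49, 7.48 and 7.89 CPM in control, 89.8, 39.6 and 17.6 CPM in light damage and 7.84, 8.49 and 9.5 CPM with A74. Ifi27 had 3.53, 4.46 and 3.84 CPM in control, 31.5, 17 and 7.54 CPM in light damage and 4.21, 3.83 and 5.25 CPM with A74. Both followed the same order, with light damage replicate 1 highest, then 2, then 3, and with control and A74 libraries overlapping below them. Lgals3bp changed by 2.69 (SE 0.61, edgeR adjusted p = 0.0217) and -2.51 (SE 0.60, edgeR adjusted p = 0.0349), and Ifi27 by 2.24 and -2.08. The largest light change, that of Ifi44l, came from 2, 1 and 0 counts in control, 94, 125 and 12 counts in light damage and 5, 2 and 2 counts with A74. The largest A74 change, that of Ifi27l2a, came from 2, 5 and 3 counts in control, 56, 37 and 15 counts in light damage and 0, 3 and 1 counts with A74 and was -4.52 (SE 0.66, edgeR adjusted p = 0.000370). Ifi44l and Ifi27l2a passed the filter only through the light damage libraries, so their calls are no independent support for a change. Ifi27 and Ifi27l2a are related neighbours, so a split of reads between them cannot be told from the table.

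TRIM21 is a cytosolic antibody receptor with ubiquitin ligase activity, TRIM30A is a mouse TRIM protein of innate immune regulation, and SP100 is a component of nuclear bodies. All 3 rose with light damage and fell with A74 against light damage. Trim21 had 3.82, 3.56 and 3.78 CPM in control, 16.1, 14.1 and 6.62 CPM in light damage and 4.66, 3.35 and 2.39 CPM with A74. Trim30a had 0.636, 0.422 and 0.674 CPM in control, 13.3, 7.64 and 1.12 CPM in light damage and 0.638, 0.479 and 0.598 CPM with A74. Trim21 varied less between the light damage libraries than Trim30a did. Replicate 3 lay about equally far above the control mean in both, by 0.81 in Trim21 and 0.84 in Trim30a as log2 CPM. The changes were 1.73 (SE 0.33, edgeR adjusted p = 0.00446) and -1.83 (SE 0.33, edgeR adjusted p = 0.00547) for Trim21, and 3.67 and -3.68 for Trim30a. Trim30a lies in a family of close copies and its count is uncertain.

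**Figure D2:**
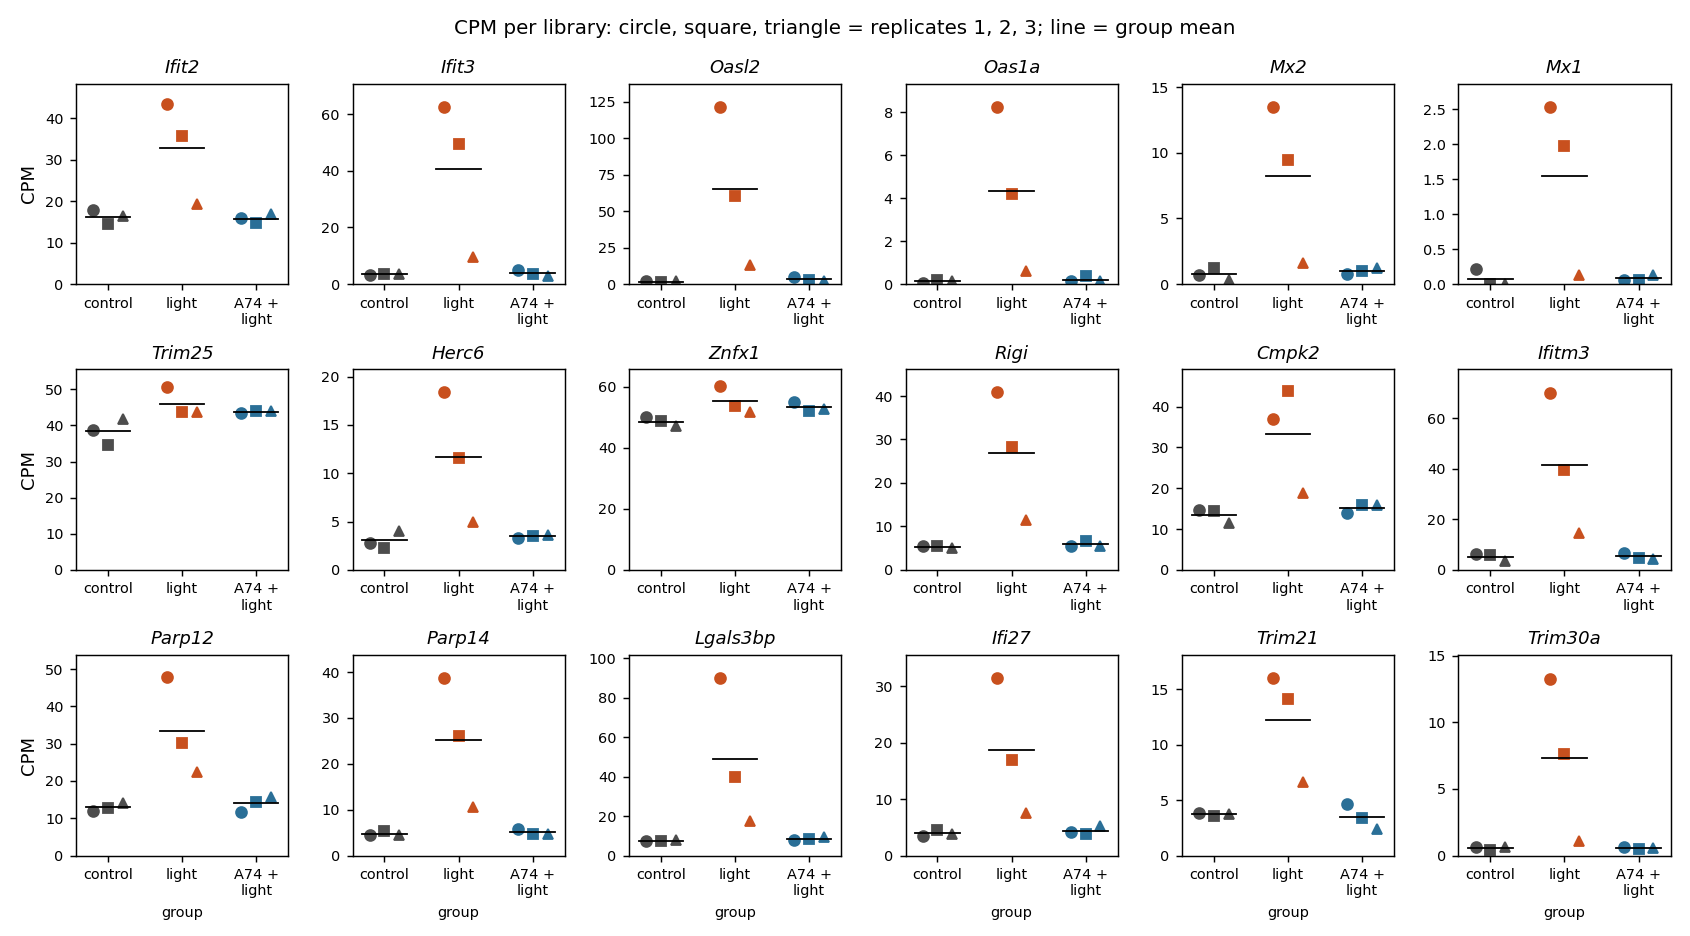
CPM (vertical axes, linear and from 0) of 18 members, the most abundant pair of each role, in control, light damage and A74 with light damage, with 1 symbol per library and a line at the group mean. Light damage replicate 3 (triangle) is the lowest light damage library of 17 of the 18 genes, Trim25 being the exception, and in Mx1 it lies within the control range.

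The 3 light damage libraries differed widely in these genes. The summed CPM of the 44 members was 217 to 225 in the control libraries, 1224, 813 and 354 in light damage replicates 1, 2 and 3, and 238 to 245 in the A74 libraries. Replicates 1 and 2 were both above replicate 3 in 43 of the 44 members, Trim25 being the exception. Of the 39 that passed the filter this held for 38, against 38.2% of all genes tested. Replicate 3 nevertheless lay above every control library in 41 members and above every A74 library in 37. Of the 39 that passed the filter these were 39 and 35, against 32.2% and 29.3% of all genes tested. The median difference of the members from the control mean, in log2 CPM, was 2.98, 2.36 and 0.92 in the 3 light damage libraries, where the median over all genes tested was at most 0.02 in size.

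The mean CPM of light damage replicates 1 and 2 over that of replicate 3 ranged from 1.07 for Trim25 to 17.2 for Mx1, with a median of 3.40. Between replicates 1 and 2 the median ratio was 1.48, and 39 members were higher in replicate 1. The 5 that were higher in replicate 2 were Oasl1, Cmpk2, Rsad2, Isg20 and Ifi44l. As a share of the rise in replicates 1 and 2 over the control mean, replicate 3 reached a median of 17.6%, from -3.25% for Oas2 to 62.6% for Trim25. Isg15 stood at 3.72%, Ifit1 at 6.06%, Oasl2 at 13%, Parp9 at 28.0% and Dhx58 at 34.1%, so the members did not scale together. These 5 were named after their values were seen.

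**Figure D3:**
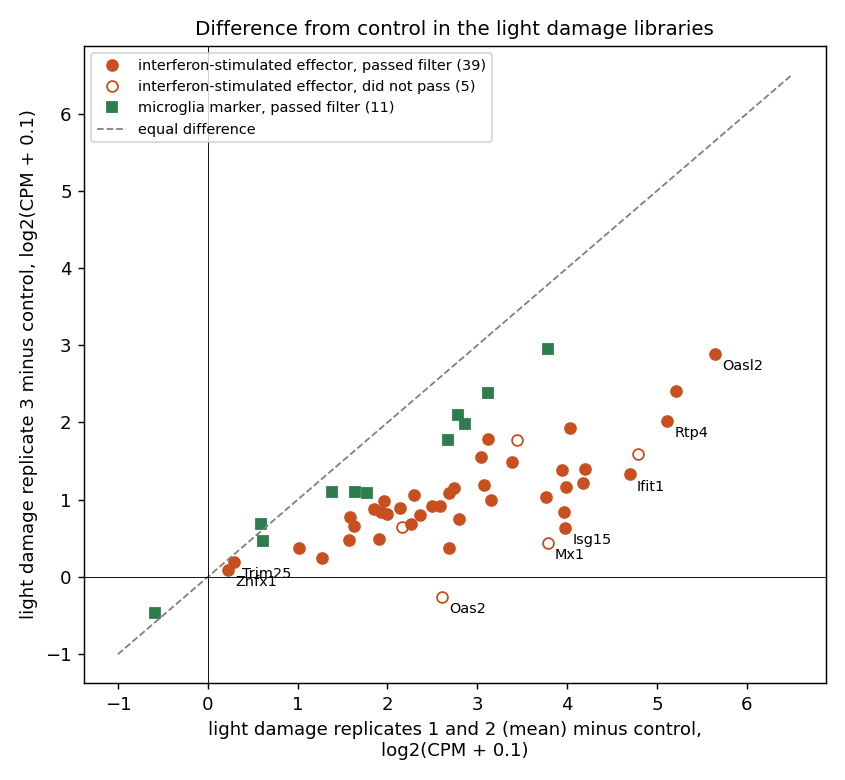
Difference from the control mean, as log2(CPM + 0.1), in light damage replicate 3 (vertical axis) against the mean of replicates 1 and 2 (horizontal axis), for the 44 members and for 11 microglia markers. All 44 members lie below the dashed line of equal difference, with Oas2 below 0, and the 5 microglia markers with horizontal values above 2 lie nearer to the line than the members beside them.

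Markers of other cells moved with the groups. Over all genes tested, 13% were called higher with light and 9.19% lower with A74 against light damage. The 12 listed microglia markers summed to 65.4 to 73.2 CPM in control, 293, 241 and 180 CPM in light damage replicates 1 to 3, and 69.4 to 96.4 CPM with A74. Of the 11 that were tested, 8 rose with light and 9 fell with A74 against light damage. P2ry12 and Tmem119 were not called with light. Siglech went the other way, by -0.57 with light and 0.27 with A74 against light damage, and was called in neither. For the microglia sum replicate 3 reached 56.0% of the rise in replicates 1 and 2. Markers of monocytes and other macrophages summed to 1.89 to 5.43 CPM in control, 60.6, 53.5 and 46.2 CPM in light damage, and 2.30 to 8.79 CPM with A74, where replicate 3 reached 79.8%. Lyz2 made up most of this sum, at 54.7, 47.9 and 45.5 CPM in light damage, so the share is mainly that of Lyz2. Among the other markers of this list only Ms4a7, at 6 counts, had light damage replicate 3 above every control library. Of 6 Müller glia markers, 5 rose with light (median log2 fold change of the 6, 0.51) and 5 fell with A74 against light damage (median -0.58), all but Glul. The 6 summed to 4644 to 5301 CPM in control, 5642, 6131 and 5713 CPM in light damage replicates 1 to 3 and 4610 to 5173 CPM with A74, and replicate 3 reached 78.6% of the rise. Glul made up most of this sum, at 2884, 3615 and 3449 CPM in light damage, so this share is not that of the 5 that rose. In each of those 5, replicate 3 was the lowest light damage library. Of 5 endothelial markers, Kdr and Flt1 rose with light (0.82 and 0.26) and fell with A74 (-0.73 and -0.21). Cldn5, Pecam1 and Cdh5 were called in neither comparison. The list summed to 309 to 338 CPM in control, 458 to 581 CPM in light damage and 319 to 354 CPM with A74. Kdr made up most of this sum, at 451, 328 and 366 CPM in light damage. The fall of summed rod markers in replicate 3 was 51.6% of that in replicates 1 and 2. Neutrophil markers summed to at most 10 counts in a library, with Ly6g and Retnlg at 0 throughout, and T and NK cell markers to at most 3 counts, with Cd3e, Ncr1, Klrb1c and Nkg7 at 0. B cell and plasmacytoid dendritic cell markers summed to 5.85 to 7.42 CPM in control, 2.70 to 4.63 CPM in light damage and 3.79 to 5.42 CPM with A74. The part of the microglia, macrophage, Müller glia, endothelial and rod markers in the changes of the effector genes was not tested.

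The light damage libraries also split by Y-linked transcripts, since replicates 1 and 2 had them and replicate 3 did not. Within libraries with Y transcripts, 2 light damage against 2 control, 38 of 39 members rose with a median log2 fold change of 2.65, where 27.7% of genes were called in either direction. Within libraries without them, 1 light damage library stood against 1 control library, and the median was 1.04. Neither has a spread of its own, so the fit assumes that they vary like the other libraries, and on that assumption it called 7 members higher, where 3.46% of genes were called. All 39 had a positive sign in both sets. The difference between the 2 sets was called for 5 members under the same assumption, where 0.266% of all genes were called. In control and light damage the anterior tissue genes split the libraries in the same way as the Y transcripts. The split by Y transcripts, that by anterior tissue genes and the difference of 1 library from the other light damage libraries cannot be told apart.

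With A74 most effector genes were lower than with light damage alone. Of the 39 members tested, 34 fell and 0 rose, where 9.19% of all genes were called lower, with a median log2 fold change of -2.29 and a range from -4.52 for Ifi27l2a to -0.05 for Znfx1. The 5 that were not called were Ifit3b, Isg15, Trim25, Znfx1 and Isg20. In 37 of the 44 members all A74 libraries lay below all light damage libraries. Of the 39 that passed the filter this held for 35, against 17.7% of genes tested. The exceptions among the 44 were Oas2, Oas3, Mx1, Trim25, Isg15, Znfx1 and Isg20. Of the 32 members that pass the filter without the light damage libraries, 28 fell, against 8.87% of such genes. This comparison shares the light damage libraries with the first, so the 2 sets of calls are not independent.

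All A74 libraries lacked Y transcripts, while 2 of the 3 light damage libraries had them. With Y transcripts as a term, 6 members were called lower, namely Dhx58, Samd9l, Parp9, Ifi44, Ifi27l2a and Trim21, and the median was -1.31. Of these 6, Ifi44 and Ifi27l2a passed the filter only through the light damage libraries, so their calls are no independent support. Against the 1 light damage library without Y transcripts the median was -0.93, and Znfx1 alone had a positive sign. That library has no spread of its own and was assumed to vary like the others, and on that assumption 7 members were called lower, where 1.95% of genes were called. A fit of the light damage and A74 libraries alone called 10 members, and 15 were called without light damage replicate 2 and 10, 8 and 8 without A74 replicates 1, 2 and 3. Dhx58, Ifi27l2a and Trim21 were called in all 17 alternative fits, and 38 of the 39 members kept a negative sign in all of them, the exception being Znfx1. Of the 3 called throughout, Ifi27l2a passed the filter only through the light damage libraries.

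Against control, 0 of the 39 members were called with A74, where 0.892% of all genes tested were called (edgeR quasi-likelihood test). Without adjustment, 1 had a p under 0.05, Trim25, at 0.19 (SE 0.08, edgeR adjusted p = 0.261), and DESeq2 also called 0. The median log2 fold change was 0.12, with 27 positive and 12 negative signs, from -1.30 for Ifi27l2a to 1.42 for Ifi44l. Uncalled does not mean equal, since the 95% intervals of the log2 fold changes reached, at the median, 1.30 to either side. For Ifit3 the interval ran from -1.95 to 2.18, for Parp12 from -0.57 to 0.77 and for Znfx1 from -0.01 to 0.28. All 3 A74 libraries lay above all 3 control libraries in Oasl2, Trim25, Uba7 and Znfx1, and the reverse held for 0 members, where 11.8% and 11% of all genes tested did so. With Y transcripts as a term Mx2 was called, at 2.39 (edgeR adjusted p = 0.0363), and the median was 0.91.

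**Figure D4:**
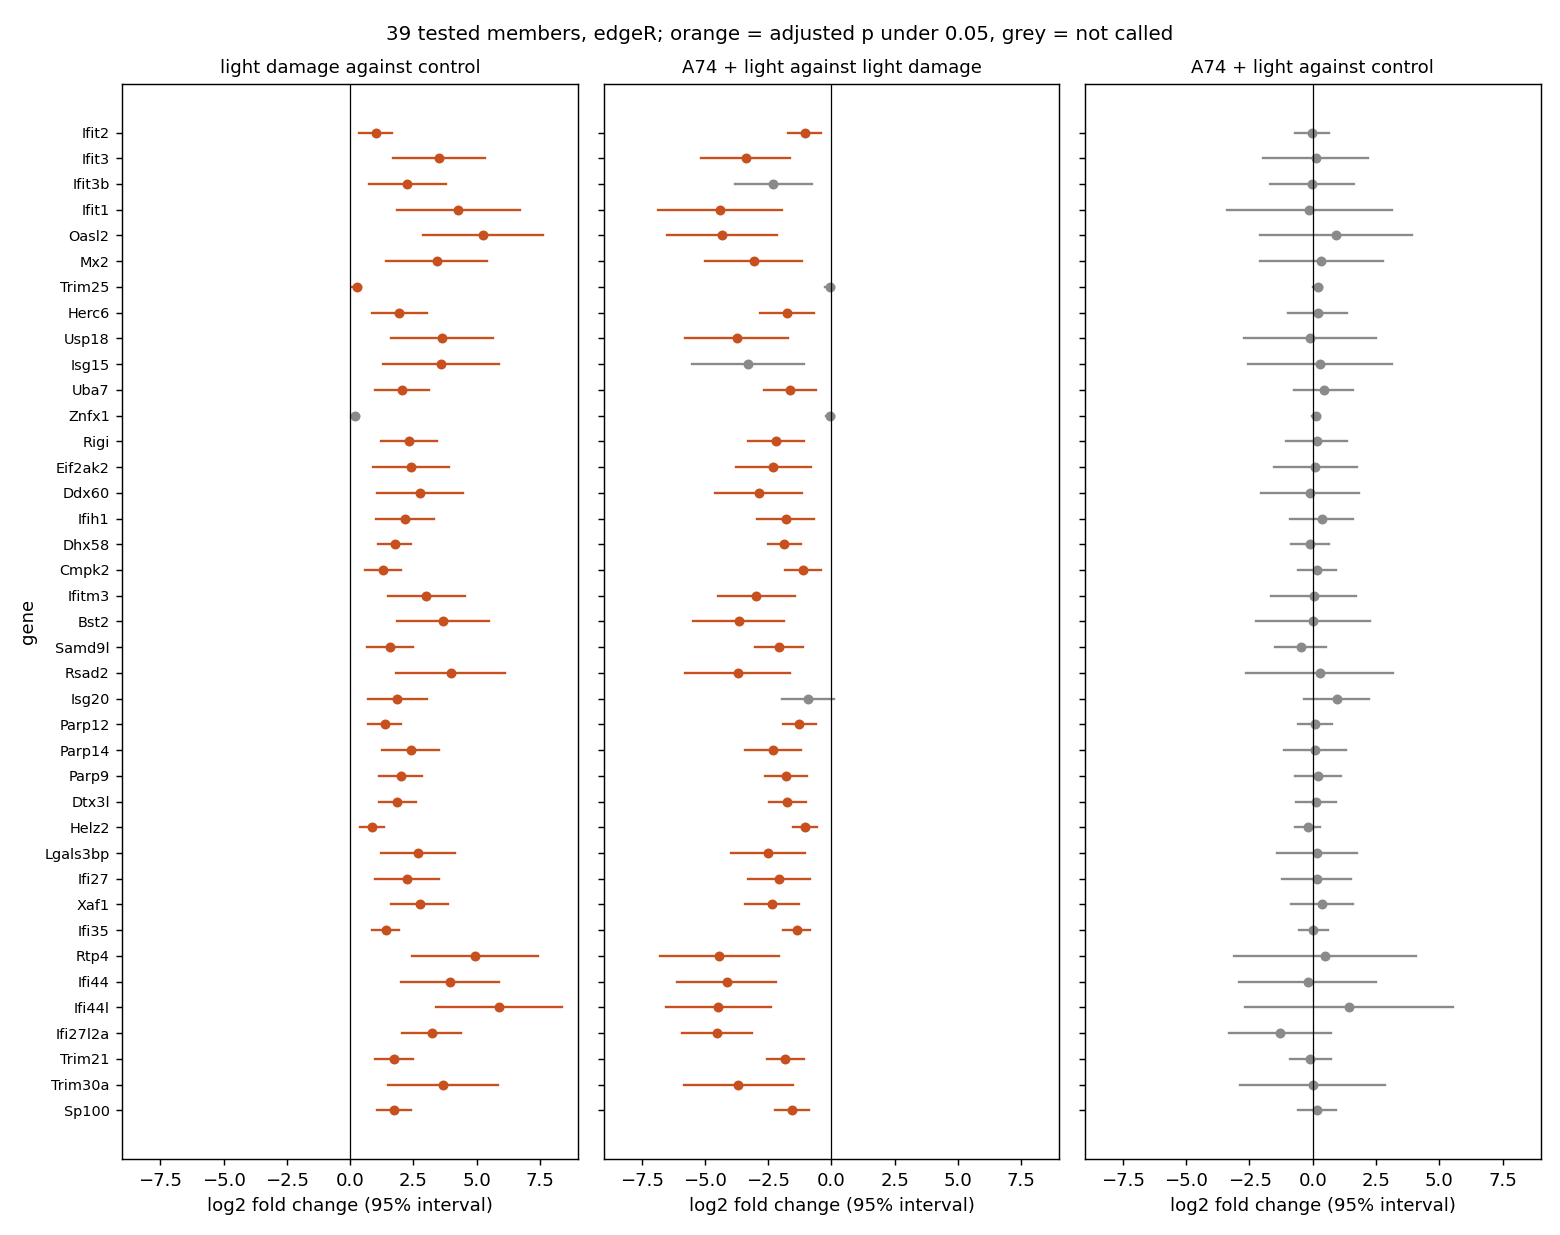
Log2 fold changes with 95% intervals (horizontal axes) of the 39 members tested (rows) in the 3 comparisons, from edgeR, with orange marking an adjusted p under 0.05 and grey marking members not called. Light damage against control has 38 orange members, A74 against light damage 34, and A74 against control 0, where the intervals lie across or close to 0.

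Genes of interferon signalling outside the effector set were read from a list of 48, of which 31 were tested. With light damage 14 rose and 3 fell, where 13% and 12.8% of all genes tested were called. With A74 against light damage 10 fell and 1 rose, where 9.19% and 9.07% of all genes were called, and A74 against control gave 0 calls. Among the 13 interferon ligand genes listed, 10 had 0 counts in all 9 libraries, among them Ifnb1 and Ifng, named after their values were seen. Ifna4 had 1 count in light damage replicate 2, Ifnl2 1 count in light damage replicate 1 and Ifnz 1 count in A74 replicate 3. A count of 0 allows up to 3 counts, which is 0.156 to 0.212 CPM in these libraries, so lower expression of a ligand was not detectable at this depth.

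Of the 6 receptor genes, 4 rose with light damage, namely Ifnar2 (0.68) of the type I receptor, Ifngr2 (0.51) of the interferon gamma receptor, and Ifnlr1 (1.49) and Il10rb (0.81), which pair in the type III receptor. Ifnar2, Ifngr2 and Il10rb fell with A74 against light damage, by -0.97, -0.33 and -1.04 as log2 fold changes. Among the kinases, Jak2 fell with light by a log2 fold change of -0.21. Irf9, the DNA-binding subunit of ISGF3, had 1.43 with light, Irf1 1.44, Irf5 1.25 and the myeloid factor gene Irf8 2.24, all called. With the replicate number as a block, Irf9 was not called, at 1.38 (edgeR adjusted p = 0.0891). Irf1, Irf5 and Irf8 fell with A74, with -1.24, -0.94 and -1.53. Irf3, which acts below STING and MAVS, moved the other way, by -0.39 with light and 0.46 with A74 against light damage.

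Upstream, the RNA sensor genes Tlr3 (1.68) and Tlr7 (3.23) and the adaptor gene Myd88 (0.67) rose with light damage and fell with A74 (-1.20, -3.93 and -0.76). Of the negative regulators, Socs1 (1.67) and Socs3 (1.61) rose with light, Socs3 fell with A74 (-1.66), and Pias1 fell with light (-0.22). Against 17 list genes called for light damage, 7, 11 and 10 were called without light damage replicate 1, light damage replicate 2 and control replicate 3. Against 11 for A74 with light damage, the count was 19 without light damage replicate 3 and 4 with Y transcripts as a term.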

How the data were processed

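Retinal RNA from 9 libraries was sequenced, and groups and replicate numbers come from the sample titles. The authors deposited read counts per gene, whole numbers that were not normalised, in 1 table. Per the submitters' processing notes, RSEM 1.3.1, Bowtie2, DESeq2 1.4.5 and GRCm39 were involved, in roles that are not stated. The sources used here give neither strand use nor annotation release, so near-identical and overlapping genes are uncertain. All libraries carry the same batch label.

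Genes were kept by filterByExpr of edgeR 4.0.16 (R 4.3.3; minimum count 10, which here asks for about 3 libraries), scaled by TMM and tested in 1 fit of 9 libraries with the robust quasi-likelihood test and Benjamini-Hochberg adjustment, called at an adjusted p under 0.05. A standard error (SE) is the size of the log2 fold change over the root of its F statistic. Log2 CPM used a prior count of 2. The scripts were tested on simulated data. Alternatives were DESeq2 1.42.0, its size factors, other filters, fits of 2 groups, terms for the replicate number, Y transcripts and anterior tissue, and leaving out each library.

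The members and lists were chosen with earlier results of these data known. Values in every library are given for the 2 members of each role with the highest mean CPM and for filtered members with 10 counts in 2 libraries, uncalled members are named, and others are given by range. Pathway genes are named where called or where a ligand has a count, except for 1 called gene that is counted but not reported here. Same-numbered control and light damage libraries were positively correlated (r = 0.12, 0.25 and 0.31 across genes, which are not independent replicates), so for that comparison blocked values stand beside the calls of named genes that they change. Differently numbered ones ranged from -0.29 to 0.13, and light damage replicate 1 correlated slightly more with control replicate 2 than with control replicate 1. Any pairing rests on these correlations, not on the labels, and it was not tested apart from the split by Y transcripts, which follows the same replicate numbers in both groups.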

Additional observations from a re-analysis of the deposited data

Results flagged for a closer look

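The light effect of 5 members differed between libraries with and without Y-linked transcripts, by an interaction test (edgeR quasi-likelihood, 0.266% of all genes tested called). As log2 differences, light effect with Y transcripts minus without, these were Rtp4 at 4.35 (edgeR adjusted p = 0.0232), Ifit1 at 3.83 (edgeR adjusted p = 0.0172), Ifit3 at 2.67 (edgeR adjusted p = 0.0104), Herc6 at 2.25 (edgeR adjusted p = 0.0247) and Ifit3b at 1.94 (edgeR adjusted p = 0.0294). Rtp4 passed the count filter only through the light damage libraries, so its call is no independent support for a difference. In Ifit1 the light effect was 4.94 with and 1.11 without Y transcripts, and in Herc6 it was 2.55 and 0.30. Of the 39 members tested, 37 had a positive difference, with a median of 1.45, and the exceptions were Isg20 and Ifi44l. The set without Y transcripts holds 1 light damage and 1 control library, so its spread is borrowed. Xist was high in that control library and not in that light damage library. A difference of that light damage library from the others, the split by anterior tissue genes and the split by Y transcripts cannot be told apart. Without control replicate 1 or 2 the interaction called 0 members, without light damage replicate 1 or A74 replicate 2 it called 3, without A74 replicate 1 it called 13, and without light damage replicate 2 it called 22.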

How the results depend on the processing

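For light damage against control, 4452 genes were called (2818 to 5467 leaving out 1 library), 38 members (16 to 43, and 15 with only the 2 groups fitted) and 17 pathway genes (7 to 19), with a member median of 2.34 (1.92 to 2.82). For A74 against light damage, 3153 genes were called (1717 to 4514, and 745 with Y transcripts as a term), 34 members (8 to 40, 10 with only the 2 groups and 6 with Y transcripts) and 11 pathway genes (8 to 19, and 4 with Y transcripts), with a median of -2.29 (-2.71 to -1.74). For A74 against control, 154 genes were called (21 to 416, 718 with no filter, 296 with DESeq2, 558 with only the 2 groups and 96 with Y transcripts) and 0 members and 0 pathway genes (0 to 0), 1 member with Y transcripts, with a median of 0.12 (0.11 to 0.16, 0.91 with Y transcripts and 0.40 with the anterior tissue term). The interaction called 5 members (0 to 22, and 17 with no filter). The change of Znfx1 with A74 against light damage ranged from -0.0925 to 0.00806 leaving out 1 library, being positive without light damage replicate 1, and was 0.0161 with Y transcripts. The causes were not tested. With the replicate block, 38, 30 and 0 members and 15, 12 and 0 pathway genes were called in the 3 comparisons, and 4588, 3362 and 136 genes. Same-numbered libraries correlated at 0.13, -0.07 and 0.13 for A74 with light damage and at 0.07, -0.09 and 0.14 for A74 with control. The signs were mixed, so no pairing was read from these values. Under the block Isg15 was called with A74 against light damage, and Herc6, Ddx60, Parp12, Lgals3bp and Ifi27 were not. DESeq2's size factors gave 38, 34 and 0 members. Depth limits the members near 10 counts, such as Oas3, and the 1 against 1 set has no spread of its own.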
